A study of Mus musculus with 30 samples.

Results

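Amino acid transporters of the plasma membrane were followed in retinal ganglion cells, the output neurons of the retina, after their axons were crushed in the optic nerve. The set holds 10 genes listed by function (Slc7a5, Slc3a2, Slc7a11, Slc7a1, Slc7a3, Slc1a4, Slc1a5, Slc38a1, Slc38a2 and Slc6a9), out of 13752 genes in the RNA count table. The genes were chosen with earlier results of these data known. All 10 passed the filter on low counts. The peak annotation assigned 71 of 151630 open chromatin peaks to these genes, 20 of them promoter peaks among 39399 promoter peaks in all. A promoter peak was one that the annotation placed within 3 kb of a transcript start.

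The cells came from C57BL/6 mice. Uncrushed retinas served as day 0, and crushed ones were taken 1, 2, 3 or 4 days later. Replicates 2 and 3 of the uncrushed RNA group carry the strain labels C57BL/7 and C57BL/8, which differ from all other samples. The labels give neither age nor sex, and no transgene or drug is named for any group. Retinas were dissociated with papain and ganglion cells were sorted by flow cytometry. RNA libraries came from 5000 to 10000 sorted cells with a full-length, unstranded cDNA kit, and values were analysed for 3 libraries on days 0, 1 and 3 and 2 libraries on days 2 and 4. ATAC-seq, which maps open chromatin by where a transposase can insert, used 50000 to 100000 cells, with 6 libraries on day 0, 3 on day 1 and 6 on day 3. The deposited sample table puts ATAC replicates 1 to 3 in batch 2 and replicates 4 to 6 in batch 1, so day 1 was measured in batch 2 alone. Nothing in the labels ties replicates to separate mice, and p-values therefore reflect only sample-to-sample spread, part of which may be technical.

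RNA libraries held 19024286 to 27561352 counts, and ATAC libraries 20006724 to 72579102 reads in peaks. The share of ATAC reads in peaks was 32.2% to 49.6% on day 0, 15.7% to 18.6% on day 1 and 17.3% to 45.6% on day 3. The summed level of 11 ganglion cell markers was 10360 to 11448 CPM (counts per 1000000, scaled by trimmed mean of M-values) on day 0 and 6474 to 6770 CPM on day 4. On day 3 the same sum was 7601 to 8161 CPM. In sorted bulk samples, fewer cells of a type and less RNA per cell cannot be told apart.

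Amino acids cross the plasma membrane on a few families of carriers. SLC7A5 and SLC7A11 are light chains that reach the surface as heterodimers with the heavy chain SLC3A2. The first exchanges large neutral amino acids such as leucine, and the second takes up cystine in exchange for glutamate, which feeds glutathione synthesis. SLC7A1 and SLC7A3 carry arginine and lysine, SLC1A4 and SLC1A5 exchange small neutral amino acids, SLC38A1 and SLC38A2 take up glutamine and other neutral amino acids with sodium, and SLC6A9 takes up glycine. Many of these genes are textbook targets of ATF4, a transcription factor that is translated when eIF2alpha is phosphorylated under amino acid shortage or other stress, and that binds composite elements together with C/EBP proteins.

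The 2 promoter sequences below are shown because they hold the motif of the composite element inside an ATF4 footprint of the deposited footprint table. They are RefSeq sequences of build GRCm38.p6, printed 5′ to 3′ on the gene's strand, with every match to the motif in capitals. RefSeq promoter windows (250 bases before to 50 bases after a transcript start) were matched for 6 of the 10 genes, in 9 windows; Slc7a5, Slc7a3, Slc1a5 and Slc38a1 had no entry.
Slc7a11, chr3:50443643-50443689, minus strand: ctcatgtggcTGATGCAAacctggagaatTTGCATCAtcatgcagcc
Slc1a4, chr11:20332700-20332727, minus strand: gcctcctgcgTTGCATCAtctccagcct
Positions below are counted from the first transcribed base as 0. The motif searched was TGATGNAA, on both strands. Before Slc7a11 it occurred once on each strand, at -66 to -59 and at -47 to -40, with 11 bases between the copies. In Slc1a4 it occurred once, from -4 to 3, so that it spans the start site. Read on its own strand, each of these 3 matches was TGATGCAA. Of all 32851 windows, 3.97% held the motif. The other motifs searched were TGACNNNGC, the core of the antioxidant response element, and TGACGTCA, the cyclic AMP response element. TGACNNNGC was found in 4 of the 9 windows, of Slc6a9, Slc7a1 and Slc38a2, against 12.4% of all windows, and TGACGTCA in none of the 9, against 1.79%. No match to one motif overlapped a match to another. A match is a description of these letters and not a measured binding site.

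RNA of 9 of the 10 transporters was higher on day 3 than on day 0, by 2.05-fold for Slc38a1 to 58.7-fold for Slc7a3, and none was lower. Only Slc1a5 did not pass the test. At an adjusted p under 0.05 (edgeR quasi-likelihood test over 13737 genes, Benjamini-Hochberg), 20.4% of all genes were higher and 20.1% lower on day 3. The median log2 fold change was 1.81 over the 10 transporters and 0.03 over all genes tested. Because the 10 were chosen with earlier results known, their excess over all genes is a description and no independent test. Earlier, 6 of 10 were higher on day 1, when 5.93% of all genes were higher and 5.45% lower. On day 2 there were 9 of 10, when 14.8% of genes were higher and 14.5% lower. On day 4 there were 8 of 10, when 19.8% of genes were higher and 19% lower.

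**Figure D1:**
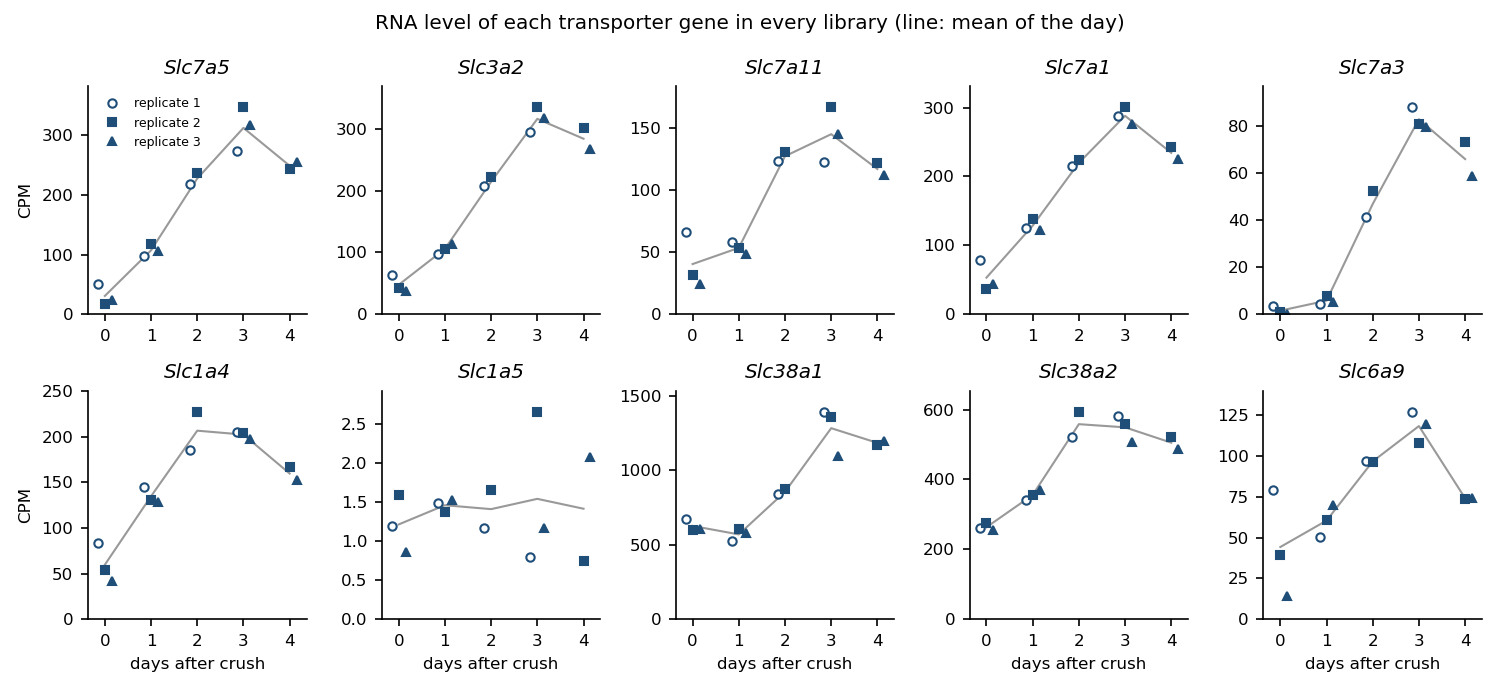
RNA level in CPM (vertical axis, from 0, scaled per gene) against days after crush for each transporter gene, with 1 symbol per library and a line through the mean of each day. Slc7a3 went from 3.41 CPM or less on day 0 to 79.8 CPM or more on day 3, while Slc1a5 stayed between 0.75 and 2.66 CPM.

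Among the heterodimer partners, Slc7a5 (chr8:121881150-121907694, minus strand, mm10) was measured at 50.8, 17.1 and 24.1 CPM in the 3 libraries of day 0. It reached 96.8, 118 and 106 CPM on day 1, 218 and 237 CPM on day 2, 273, 348 and 316 CPM on day 3, and 243 and 254 CPM on day 4. Every library after crush lay above every day 0 library. Its log2 fold change was 1.81 ± 0.25 (SE) on day 1, adjusted p = 0.000211 with edgeR, and 3.36 ± 0.27 on day 3, a 10.2-fold rise with adjusted p = 2.57e-08.

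The shared heavy chain Slc3a2 (chr19:8706882-8723369, minus strand) followed with 63.3, 41.8 and 38.0 CPM on day 0. Its libraries gave 97.5, 106 and 114 CPM on day 1, 207 and 222 CPM on day 2, 295, 336 and 318 CPM on day 3, and 301 and 267 CPM on day 4. No library after crush overlapped day 0. With edgeR the rise was 2.22-fold on day 1 (adjusted p = 6.07e-05), and on day 3 it was 6.64-fold (adjusted p = 3.01e-10). Slc3a2 had the smallest adjusted p of the 10 genes on day 3.

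The cystine light chain Slc7a11 (chr3:49892526-50443614, minus strand) was at 66.0, 31.4 and 24.0 CPM on day 0 and at 58.6, 53.6 and 48.4 CPM on day 1. It then reached 124 and 131 CPM on day 2, 123, 167 and 145 CPM on day 3, and 122 and 113 CPM on day 4. The day 1 libraries lay within the range of day 0, because replicate 1 of day 0 was above all of them, and the later days lay above both. On day 1 its log2 fold change was 0.41 ± 0.25 (edgeR adjusted p = 0.320), and on day 3 it was 1.85 ± 0.25, or 3.60-fold (adjusted p = 1.39e-05). Without day 0 replicate 1 the day 1 value was 0.92, with an adjusted p of 0.000671.

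Both carriers of cationic amino acids rose from day 1 on. Slc7a1 (chr5:148327410-148399904, minus strand) was at 79.3, 36.1 and 44.0 CPM on day 0, at 125, 139 and 122 CPM on day 1, and at 287, 301 and 276 CPM on day 3. Its groups did not overlap, and with edgeR the rise was 2.43-fold on day 1 (adjusted p = 0.000355), and on day 3 it was 5.44-fold (adjusted p = 2.80e-08). On days 2 and 4 it stood at 215 and 224 CPM and at 243 and 226 CPM.

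Slc7a3 (chrX:101079210-101086020, minus strand) was close to undetected before crush, with 63, 22 and 5 counts in the 3 libraries of day 0, which correspond to 3.41, 0.95 and 0.19 CPM. It was at 4.46, 7.65 and 5.23 CPM on day 1, at 41.2 and 52.6 CPM on day 2, at 88.2, 80.7 and 79.8 CPM on day 3, and at 73.1 and 58.8 CPM on day 4. All libraries after crush were above day 0. The log2 fold change was 2.04 ± 0.48 on day 1 (edgeR adjusted p = 0.0109), 5.05 ± 0.48 on day 2 (adjusted p = 7.64e-07) and 5.87 ± 0.48 on day 3 (adjusted p = 3.12e-08). These sizes rest on the few counts of day 0. The folds on days 1, 2, 3 and 4 were 4.11, 33.2, 58.7 and 46.7 with all libraries. Leaving out replicate 1 of day 0 made them 10.1, 81.3, 145 and 115, and leaving out its replicate 3 made them 2.73, 22.0, 39.1 and 31.2. On day 1 the call was lost when only the libraries of the compared days were fitted (adjusted p = 0.151).

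Of the exchangers of small neutral amino acids, Slc1a4 (chr11:20302180-20332713, minus strand) rose early and was highest on days 2 and 3. Its values were 83.6, 53.4 and 42.0 CPM on day 0, 145, 131 and 129 CPM on day 1, 186 and 228 CPM on day 2, 205, 205 and 198 CPM on day 3, and 167 and 152 CPM on day 4. Every library after crush exceeded every library before it. With edgeR the change was 2.27-fold on day 1 (adjusted p = 0.000288), then 3.47-fold on day 2 (adjusted p = 1.84e-06) and finally 3.40-fold on day 3 (adjusted p = 3.38e-07). Slc1a5 (chr7:16781340-16798274, plus strand), the glutamine exchanger, gave 19 to 61 counts per library, or 0.75 to 2.66 CPM over all 13 libraries. Its libraries overlapped on all days, and its log2 fold change on day 3 was 0.34 ± 0.58 (edgeR adjusted p = 0.678), so that at this depth no change was detectable.

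The sodium-coupled carriers changed less in fold. Slc38a2 (chr15:96687392-96699730, minus strand) was at 260, 275 and 255 CPM on day 0 and at 341, 356 and 369 CPM on day 1. It was at 522 and 594 CPM on day 2, 581, 558 and 508 CPM on day 3, and 522 and 488 CPM on day 4. Its groups were tight and did not overlap with day 0. By edgeR it rose 1.35-fold on day 1 (adjusted p = 0.00149), then 2.12-fold on day 2 (adjusted p = 6.20e-08) and 2.09-fold on day 3 (adjusted p = 8.11e-09).

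Its neighbour on chromosome 15, Slc38a1 (chr15:96571418-96642913, minus strand), rose later, from day 2 on. It was measured at 675, 597 and 605 CPM on day 0 and at 523, 603 and 580 CPM on day 1. It then was at 838 and 872 CPM on day 2, 1394, 1358 and 1095 CPM on day 3, and 1169 and 1198 CPM on day 4. Days 0 and 1 overlapped and the later days lay above both. The log2 fold change was -0.14 ± 0.09 on day 1 (edgeR adjusted p = 0.357), 0.45 ± 0.10 on day 2 (adjusted p = 0.00232) and 1.04 ± 0.09 on day 3 (adjusted p = 7.29e-08).

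The glycine transporter Slc6a9 (chr4:117834506-117875198, plus strand) varied between libraries before crush, with 78.9, 39.4 and 14.3 CPM. It was at 50.6, 60.7 and 70.0 CPM on day 1, 97.3 and 96.3 CPM on day 2, 127, 108 and 120 CPM on day 3, and 73.8 and 74.4 CPM on day 4. Days 1 and 4 overlapped day 0, and days 2 and 3 lay above it. The log2 fold change was 1.14 ± 0.38 on day 2 (edgeR adjusted p = 0.0341) and 1.43 ± 0.35 on day 3 (adjusted p = 0.00368). The day 2 call was lost with DESeq2, with only the compared days fitted, with the deposited sequencing components as terms, and without day 0 replicate 2 or either library of day 2. Without day 0 replicate 1 the day 3 change was 4.34-fold in place of 2.69-fold. The summed level of amacrine and horizontal cell markers, 8 of 10 listed being in the table, was 270 to 473 CPM on day 0, 403 to 463 CPM on day 1, 522 to 626 CPM on day 2, 288 to 386 CPM on day 3 and 388 to 434 CPM on day 4. On day 2 both libraries thus lay above every day 0 library in this sum, and on day 3 all libraries lay within the day 0 range. Slc6a9 was called higher on both days. The part of this sum in the Slc6a9 values was not tested.

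**Figure D2:**
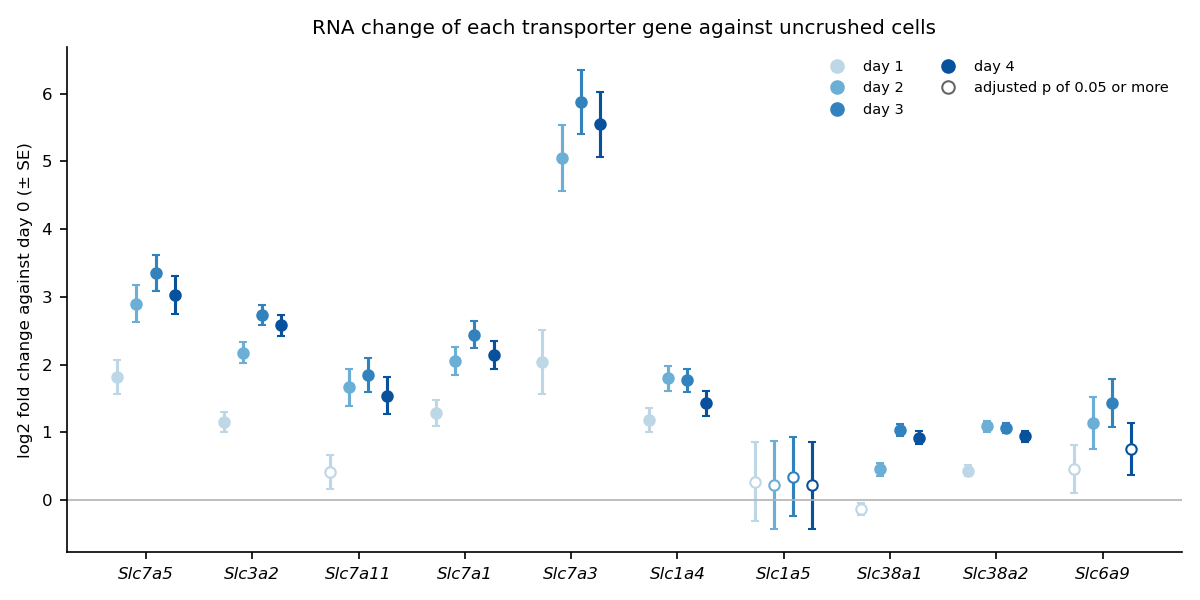
RNA log2 fold change against day 0 with its standard error (vertical axis) for each transporter gene on days 1 to 4, with open symbols where the adjusted p was 0.05 or more. Slc7a3 reached 5.87 on day 3, Slc38a1 began at -0.14 on day 1, and the error bars of Slc1a5 spanned 0 on every day.

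Day 0 replicate 1 was the highest of its group for 8 of the 10 transporters. The share of all genes highest in this library was not computed, so the count describes these genes only. It was also highest for Atf4, with 271 CPM against 165 and 153 CPM, and for the ATF4 target Asns, asparagine synthetase, with 192 CPM against 113 and 115 CPM. Chac1, a glutathione-degrading enzyme under ATF4, was at 31.1 CPM there and at 4.14 and 6.14 CPM in the other two. The summed rod markers were at 1043 CPM in this library against 344 and 230 CPM. Replicate 1 is also the only day 0 RNA library labelled C57BL/6, as all crushed groups are. Fits without it, here and for single genes above, therefore set libraries labelled C57BL/7 and C57BL/8 against C57BL/6. The part of these differences in the fold changes was not tested beyond leaving replicate 1 out. Without it, 8 transporters were higher on day 1, with Slc7a11 and Slc6a9 (log2 fold change 1.14, adjusted p = 0.0120, edgeR) added. On day 4, 9 were higher, with Slc6a9 (1.44, adjusted p = 0.000731) added. Over all genes, fits with any 1 library left out called 1024 to 1563 on day 1 and 4098 to 5305 on day 4, in either direction.

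Between neighbouring days after crush, most calls fell in the step from day 1 to day 2. Here 8 of 10 transporters were higher and none lower, against 6.22% of all genes higher and 6.73% lower. Slc7a3 rose 8.08-fold (edgeR adjusted p = 0.000148), Slc7a11 2.38-fold (adjusted p = 0.00466) and Slc7a5 2.12-fold (adjusted p = 0.0117) in this step. Slc1a5 and Slc6a9 did not pass. With the deposited sequencing components as terms, 1 of the 8 calls was left, and without 1 of the day 2 libraries 4 or 5 were left. Over all genes, in either direction, the main fit called 1779 in this step and the fit with those components 626. Fits with any 1 library left out called 682 to 1946.
From day 2 to day 3, Slc3a2 (1.47-fold, edgeR adjusted p = 0.0208) and Slc38a1 (log2 fold change 0.58, adjusted p = 0.000794) were higher and none was lower, against 7.43% and 9.51% of all genes. The count of 2 became 5 without day 0 replicate 1, and 6 with only the compared days fitted. It became 1 without either day 2 library, or without day 3 replicate 2 or 3. The count over all genes moved as well, from 2326 in the main fit to between 996 and 2886 in the alternative fits, in either direction. These transporter counts therefore describe the fits and not the transporters alone.
From day 3 to day 4 edgeR called 0 transporters, against 0.881% of all genes higher and 0.859% lower. The log2 fold changes ran from -0.68 for Slc6a9 to -0.12 for Slc38a1, with a median of -0.30 beside -0.01 over all genes. Over all genes, edgeR called 239 in this step, with 2069 at an unadjusted p under 0.05, and DESeq2 called 596. A fit of those 2 days alone called 4 transporters lower, beside 656 of all genes in either direction.

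The genes whose level over the 13 libraries was most like that of a transporter included tRNA synthetases and enzymes of amino acid synthesis, and also many genes of neither group. This is a description by Pearson's r of log2 CPM; the libraries share days and depth, and the transporters were chosen with earlier results known. Slc7a5 and Slc7a1 were each the nearest gene to the other (r = 0.997). Next for both came Clic4 and Cox6a2 (0.991 and 0.990 for Slc7a5, 0.993 and 0.989 for Slc7a1). Slc3a2 was nearest to Gars, glycyl-tRNA synthetase, and to Asns (both r = 0.991). For Slc1a4 they were Atf5 (0.990), Psph (0.980) and Pck2 (0.968), for Slc38a2 Gas5 (0.988), Paqr3 (0.987) and Sars (0.987), and for Slc7a11 Dlgap2 (0.974), Asns (0.973) and Slc7a3 (0.972). Slc7a3 was nearest to Phf10 (0.985), Slc38a1 to Epg5 (0.986) and Slc6a9 to Pcgf2 (0.963). Slc1a5 had no neighbour above the 0.857 of Vps36.

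Other amino acid transporters, in a list not limited to the plasma membrane, did not share a direction. Of 33 tested among 49 listed, 8 were higher and 12 lower on day 3, with a median log2 fold change of 0.08, against 20.4% of all genes higher and 20.1% lower. Slc6a8, which takes up creatine, rose 5.24-fold (edgeR adjusted p = 1.30e-10). Slc43a2, a facilitative carrier of large neutral amino acids, was lower (log2 fold change -1.99, adjusted p = 1.91e-10). The GABA transporter Slc6a11 (-1.86, adjusted p = 5.79e-10) and the proline transporter Slc6a7 (-2.10, adjusted p = 1.55e-06) were lower as well. Of 7 vesicular and lysosomal carriers, 2 were higher on day 3, the cystine exporter Ctns (1.98-fold) and the vesicular glutamate transporter Slc17a6 (1.30-fold), and 0 were lower by edgeR. Of 14 mitochondrial carriers 4 were higher and 0 lower. Both counts stand beside the same 20.4% and 20.1%. Among the mitochondrial carriers, Slc25a39, which carries glutathione, was at 2.38-fold and Slc25a38, which carries glycine, at 1.42-fold.

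In amino acid synthesis, 12 of 19 genes were higher and 3 lower on day 3, with a median log2 fold change of 1.78. Shmt2, which makes glycine in mitochondria, rose 9.58-fold, Psat1 of serine synthesis 11.6-fold, Asns 3.79-fold and Cth, which makes cysteine, 36.4-fold (edgeR adjusted p = 7.26e-12, 2.02e-09, 1.65e-08 and 7.66e-10). Of the cytosolic tRNA synthetases, 17 of 19 were higher and 0 lower, with Eprs at 3.34-fold, Sars at 3.36-fold, Wars at 2.80-fold and Aars at 2.65-fold. These counts stand against the 20.4% of all genes higher and 20.1% lower on that day.

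Regulators of the ATF4 pathway included 13 of 17 higher and 2 lower on day 3. Atf3, a stress-induced factor, rose 141-fold, Atf5 13.4-fold, Ddit3, which encodes CHOP, 11.1-fold and Ppp1r15a, which encodes the phosphatase subunit GADD34, 5.67-fold (edgeR adjusted p = 4.88e-14, 2.01e-09, 4.78e-12 and 2.39e-08). The glutathione and antioxidant list had 2 of 14 higher and 1 lower, against the same 20.4% and 20.1% of all genes. The 2 were Hmox1, heme oxygenase, at 16.8-fold and Srxn1, sulfiredoxin, at 5.72-fold, while Txnrd1 (log2 fold change 0.36, edgeR adjusted p = 0.0561) and Keap1 (0.28, adjusted p = 0.0962) did not pass. In the list for amino acid sensing at mTORC1, 8 of 25 were higher and 5 lower, against 20.4% and 20.1%. Sesn2, the leucine sensor, rose 14.1-fold, Fnip1 1.99-fold, Tsc1 1.66-fold and Rheb 1.59-fold. These lists were chosen with earlier results of these data known.

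Markers of other cells were present in all RNA libraries. Rod markers summed to 230 to 1043 CPM on day 0, 803 to 1063 CPM on day 1, 269 to 348 CPM on day 2, 654 to 793 CPM on day 3 and 312 to 664 CPM on day 4. Mueller glia markers summed to 667 to 784, 692 to 941, 541 to 599, 329 to 453 and 422 to 493 CPM on the same days. Microglia and macrophage markers moved with the day: 53.2 to 85.4 CPM on day 0, 81.2 to 441 CPM on day 1, 181 to 211 CPM on day 2, 31.2 to 47.6 CPM on day 3 and 132 to 225 CPM on day 4. Of 8 vascular markers, 3 were in the table, summing to 2.92 to 10.2 CPM on day 0 and 3.88 to 6.08 CPM on day 3. The microglial sum was above every day 0 library on days 2 and 4 and below every one on day 3, and the Mueller glia sum was below every day 0 library on days 2, 3 and 4. The part of other cells in the transporter values was not tested.

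On day 3, promoter peaks of the transporters were called about as often as promoter peaks in general. Of their 20 promoter peaks, 3 were higher and 1 lower on day 3 than on day 0 (edgeR with batch as a term, adjusted p under 0.05 over 151630 peaks), against 10.1% of all promoter peaks higher and 8.97% lower. Their median log2 fold change was 0.00, beside -0.05 over all promoter peaks. Of the 51 other peaks, 7 were higher and 3 lower, against 18.7% and 6.83% of all peaks outside promoters. Over all peaks called on day 3, 69.0% were higher. This share was 60.6% with DESeq2 size factors, 57.4% in batch 2 alone, 91.3% in batch 1 alone, 99.8% with a lowess trend removed and 53.4% with the deposited batch-adjusted values.

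**Figure D3:**
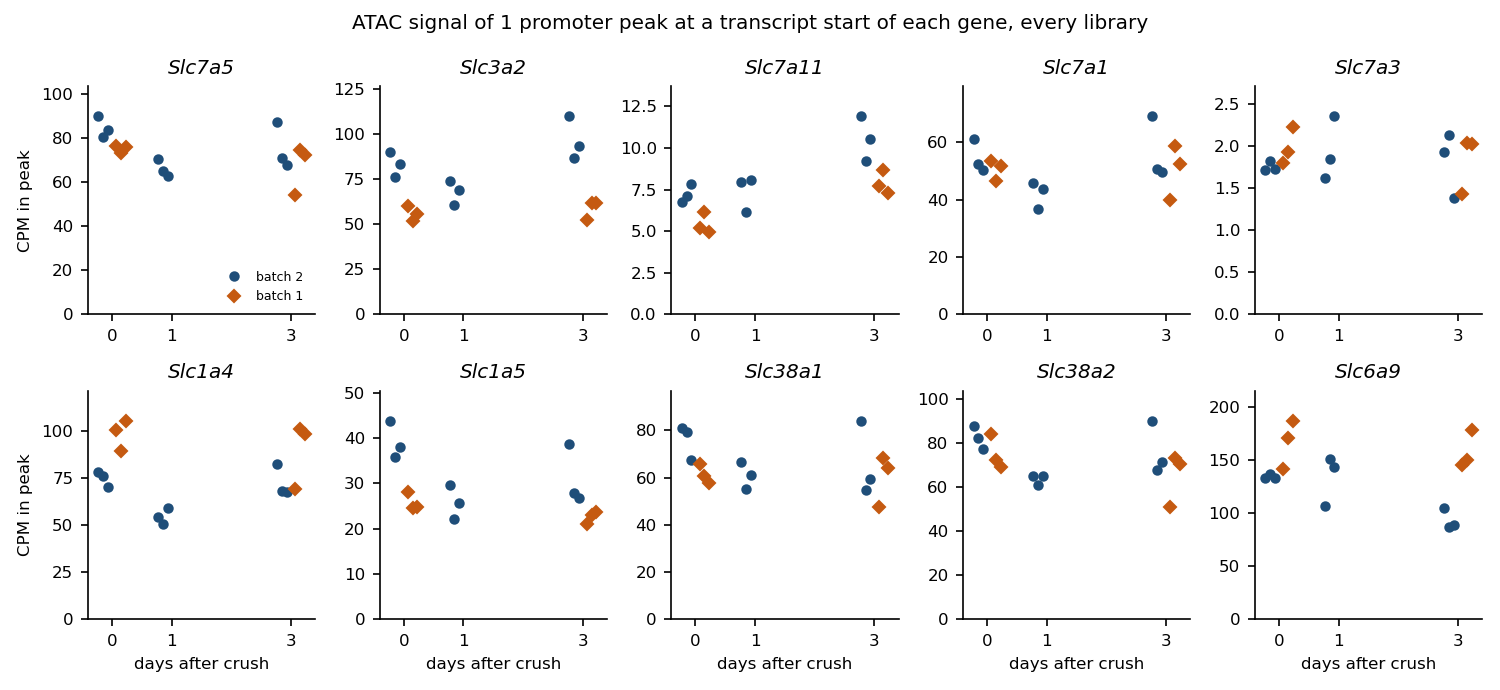
ATAC signal in CPM (vertical axis, from 0, scaled per gene) of 1 promoter peak at an annotated transcript start of each transporter gene (the one with the highest mean count where several qualify), against days after crush, with 1 symbol per library and colours for the batches. Of these 10 peaks only that of Slc7a11 was called higher on day 3, where its libraries lay between 7.29 and 11.9 CPM against 4.93 to 7.85 CPM on day 0.

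Slc7a11 was the transporter with the most called peaks, with 4 of its 5 higher on day 3 and none lower. Over all promoter peaks 10.1% were higher and 8.97% lower, and over all other peaks 18.7% and 6.83%. Its promoter peak at the gene start (chr3:50442706-50444606), which holds the sequence printed above, had a lowest, median and highest level of 4.93, 6.48 and 7.85 CPM on day 0. On day 1 its libraries were at 7.98, 6.14 and 8.07 CPM, and on day 3 the lowest, median and highest were 7.29, 8.95 and 11.9 CPM. The pooled ranges of days 0 and 3 overlapped, but within each batch they did not. In batch 2 the means were 7.25 ± 0.54 CPM on day 0 and 10.6 ± 1.35 CPM on day 3, and in batch 1 they were 5.43 ± 0.65 and 7.89 ± 0.71 CPM (SD, n = 3 each). The log2 fold change on day 3 was 0.54 ± 0.11, or 1.45-fold (edgeR adjusted p = 0.00112). It was 0.46 in batch 2 alone (adjusted p = 0.0206) and 0.53 in batch 1 alone (adjusted p = 0.0774), and the call was also lost with a lowess trend removed (0.91, adjusted p = 0.0577).

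A further promoter peak of Slc7a11 (chr3:50445007-50445798) had a lowest, median and highest level of 0.78, 1.69 and 2.80 CPM on day 0 and 2.78, 3.61 and 3.85 CPM on day 3. The top of day 0 and the bottom of day 3 overlapped slightly. The change was 2.11-fold (edgeR adjusted p = 0.000456), with a log2 fold change of 1.61 in batch 2 and 0.50 in batch 1, where it was not called (adjusted p = 0.223). The exon peak at chr3:50438010-50439286 was 1.76-fold higher (edgeR adjusted p = 0.000217), with 0.53 in batch 2 and 1.08 in batch 1, called in both.

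A peak downstream of Slc3a2 (chr19:8702208-8704414) had the smallest adjusted p of all peaks named here. Its lowest, median and highest levels were 2.28, 2.81 and 3.49 CPM on day 0. On day 1 it was at 5.16, 5.06 and 5.39 CPM, and on day 3 its lowest, median and highest were 5.45, 6.85 and 10.1 CPM. No 2 of the days overlapped. The change on day 3 was 2.52-fold (edgeR adjusted p = 2.84e-07), with a log2 fold change of 1.45 in batch 2 and 1.12 in batch 1, both called. On day 1 it was 1.58-fold (adjusted p = 0.0252), and from day 1 to day 3 it was 1.60-fold (adjusted p = 0.0459). The day 1 call was lost without day 0 replicate 1, 2 or 3 or any library of day 1 (adjusted p up to 0.101). It was also lost with no batch term, with the reads-in-peaks term, with the lowess trend removed and with the deposited batch-adjusted values. The call from day 1 to day 3 was lost in 10 of 15 fits with 1 library left out (adjusted p up to 0.301): day 0 replicates 1, 3 and 5, all 3 of day 1, and day 3 replicates 1, 2, 3 and 5. It was also lost with no batch term, with library size alone, with the replicate block and with the lowess trend removed. Of the 51 other peaks only this one was called from day 1 to day 3, against 0.921% of all peaks outside promoters higher and 0.216% lower. The Slc3a2 promoter peak with the highest count (chr19:8704607-8717413), at an internal transcript start, had a log2 fold change of 0.15 ± 0.10 on day 3 (edgeR adjusted p = 0.298). The peak over the 5′ end of the gene (chr19:8721284-8725484) had -0.06 ± 0.11 (adjusted p = 0.737).

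For Slc7a5, an intron peak (chr8:121892532-121893546) ran from 1.12 to 2.10 CPM on day 0 and from 2.25 to 6.31 CPM on day 3 without overlap. The change was 2.16-fold (edgeR adjusted p = 0.000333), with a log2 fold change of 1.62 in batch 2 and 0.46 in batch 1 (adjusted p = 0.334). A peak assigned to Slc7a5 that lies beyond the gene's 3′ end (chr8:121873458-121875339) was lower (-0.33, edgeR adjusted p = 0.0485), but 0.01 with a lowess trend removed. In that fit the median over all peaks was 0.35. For Slc7a1, a promoter peak of an internal transcript (chr5:148341716-148343187) ran from 3.43 to 6.43 CPM on day 0 and from 5.49 to 8.07 CPM on day 3. These ranges overlapped, and the change was 1.38-fold (edgeR adjusted p = 0.0183), with neither batch called alone (0.36 and 0.48 in batches 2 and 1). An intergenic peak of Slc7a1 (chr5:148418822-148419697) was 1.46-fold higher (adjusted p = 0.0169; batch 1 alone 0.39, adjusted p = 0.472).

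Slc38a1 had the most annotated peaks, 28, of which 2 were higher and 1 lower on day 3. The shares over all peaks outside promoters were 18.7% and 6.83%, and over all promoter peaks 10.1% and 8.97%. An intergenic peak (chr15:96547315-96548546) was 2.18-fold higher (edgeR adjusted p = 0.00112), with a log2 fold change of 1.71 in batch 2 and 0.52 in batch 1 (adjusted p = 0.158). An intron peak (chr15:96624831-96627944) was lower (-0.73, adjusted p = 0.00222), with -1.11 in batch 2 and -0.45 in batch 1 (adjusted p = 0.242). Slc6a9 had the only promoter peak called lower on day 3 (chr4:117833978-117837623), at 58.8 to 64.1 CPM on day 0 and 38.4 to 61.8 CPM on day 3. Its ranges overlapped, its log2 fold change was -0.33 ± 0.11 (edgeR adjusted p = 0.0318), and batch 1 alone gave -0.17 (adjusted p = 0.730). With a lowess trend removed its sign turned (0.22), in a fit where the median over all promoter peaks was 0.35. The RNA of Slc6a9 was higher on the same day.

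RNA and promoter values on day 3 are set side by side here, with 1 promoter peak per gene, chosen at an annotated transcript start and by the highest mean count where several qualified. For Slc3a2 and Slc6a9 the chosen peak is at an internal transcript start, and for the other 8 genes it lies at the 5′ end of the gene. Slc7a3 had an RNA log2 fold change of 5.87 and a promoter value of -0.02 ± 0.15. Slc7a5 had 3.36 and -0.17 ± 0.10, and Slc7a1 2.44 and 0.02 ± 0.11. For Slc1a4 they were 1.77 and -0.09 ± 0.10, for Slc38a1 1.04 and -0.12 ± 0.12, for Slc38a2 1.06 and -0.16 ± 0.10, and for Slc6a9 1.43 and -0.30 ± 0.12. None of the peaks chosen for these 7 genes passed the test, and neither did those of Slc3a2 and Slc1a5 (-0.26 ± 0.11). The Slc6a9 peak over the 5′ end of the gene, described above, was called lower (-0.33, edgeR adjusted p = 0.0318), while that of Slc3a2 was not called (-0.06). The RNA and ATAC libraries are different samples, so no relation within a sample was computed.

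**Figure D4:**
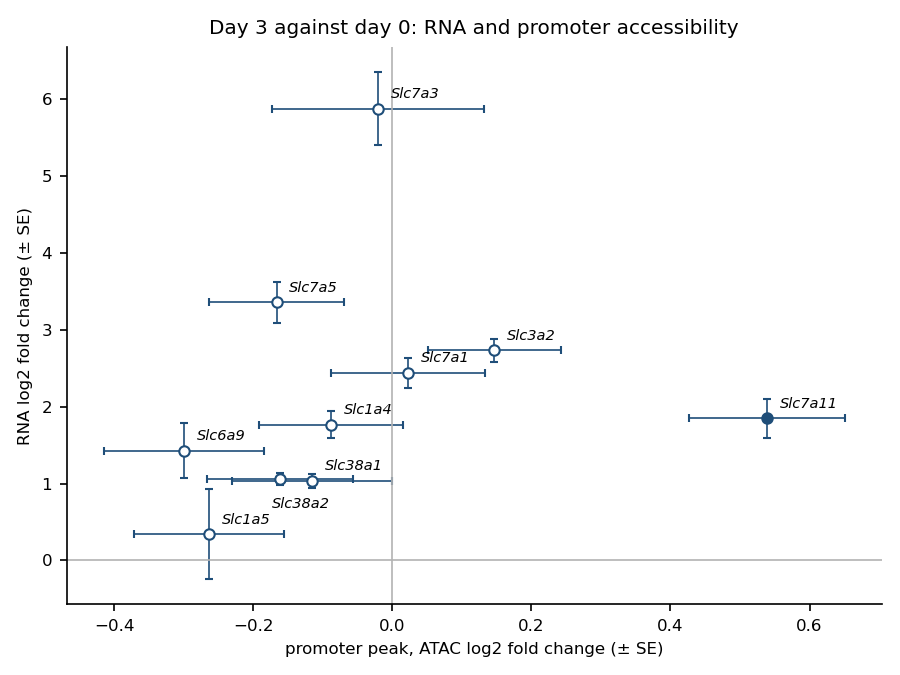
RNA log2 fold change (vertical axis) against the log2 fold change of 1 promoter peak at an annotated transcript start in ATAC-seq (horizontal axis), day 3 against day 0, each with its standard error and 1 point per transporter gene; the filled point is the promoter peak that passed the test. Slc7a11 stands at 0.54 on the horizontal axis, and the other promoter values lie from -0.30 to 0.15 while RNA values reach 5.87.

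On day 1, 1 of the 20 promoter peaks was higher and 3 were lower, against 2.52% and 6.9% of all promoter peaks. Slc7a5 had the higher one (chr8:121895615-121897239, log2 fold change 0.65, edgeR adjusted p = 0.0247), named after its value was seen. The lower ones belonged to Slc1a4 (-0.47, adjusted p = 0.0413), Slc1a5 (-0.57, adjusted p = 0.0257) and Slc6a9 (-0.53, adjusted p = 0.0340). Of the 51 other peaks 1 was higher and none lower, against 6.46% and 0.815% of all peaks outside promoters. Day 1 calls were fragile: 11884 peaks were called in all, 0 with no batch term, 0 with a lowess trend removed and 895 with a term for the reads-in-peaks share. Of the peaks called on day 1, 69.4% were higher, but 92.6% with library size alone and 48.8% with DESeq2 size factors. The 1 higher and 3 lower promoter calls were all lost without the batch term, with the lowess trend removed, with the reads-in-peaks term, and when any of 4 libraries was dropped (replicates 1 and 3 of day 0, replicates 2 and 3 of day 1). The share of reads in peaks was also lower on day 1 (15.7% to 18.6%) than on day 0 (32.2% to 49.6%). Day 3, at 17.3% to 45.6%, overlapped day 1. The part of these shares in the day 1 values was not tested beyond these fits. From day 1 to day 3, 0 promoter peaks of the transporters were called by edgeR, against 1.17% of all promoter peaks higher and 0.129% lower, and 3 higher by DESeq2.

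The deposited footprint table for ATF4 lists 6158 sites, each with a motif and a score on days 0, 1 and 3 for the depletion of transposase cuts that a bound protein leaves. Its columns carry the prefix nonTarget, which the labels do not explain. Each site has 1 score per day with no replicates. Every listed site scored higher on days 1 and 3 than on day 0, so a rise is a property of the list and no result about the transporters. The table places 7 sites in promoter peaks of 5 transporters: 3 for Slc3a2 and 1 each for Slc1a4, Slc7a11, Slc7a1 and Slc7a5. Slc1a5, Slc38a1, Slc38a2, Slc6a9 and Slc7a3 had none in it.

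The list also limits the height of the scores, because it holds 0 sites that the authors flagged as bound on no day. Heights are therefore compared here only among listed sites. The Slc1a4 site (chr11:20332707-20332720) covers the start site and the motif printed above. It scored 1.45 on day 0, 1.86 on day 1 and 1.96 on day 3, against medians of 0.118, 0.179 and 0.186 over the 2670 ATF4 sites in promoter peaks. It thus stood at the 97.3 percentile of those sites on day 0. One Slc3a2 site (chr19:8713015-8713026) scored 0.834, 1.14 and 0.993 on the 3 days, the 95.4 percentile on day 0. Both were high before crush.

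The Slc7a11 site (chr3:50443669-50443682) lies on the upstream of the 2 motif copies. It scored 0.204, 0.260 and 0.346, at the 77.1 percentile on day 0. The Slc7a1 site (chr5:148342545-148342558) is in the internal promoter peak and scored 0.236, 0.252 and 0.326. The Slc7a5 site (chr8:121901282-121901295) was low before crush, at 0.0534 and the 8.2 percentile. It scored 0.162 on day 1 (38.6 percentile) and 0.130 on day 3 (15.5 percentile), again below the lower quartile of 0.148. The authors flagged it as bound on day 1 but not on days 0 and 3. The remaining Slc3a2 sites, at chr19:8705409-8705420 and chr19:8708350-8708363, scored 0.120 and 0.135 on day 0 and 0.159 and 0.156 on day 3. Their deposited distances to the nearest transcript start are 7565 and 4622 bases, and that of the Slc7a5 site is -4780. These sites lie in wide promoter peaks but farther than 3 kb from that start. The Slc1a4 site had the highest score of the 7 on each of the days.

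**Figure D5:**
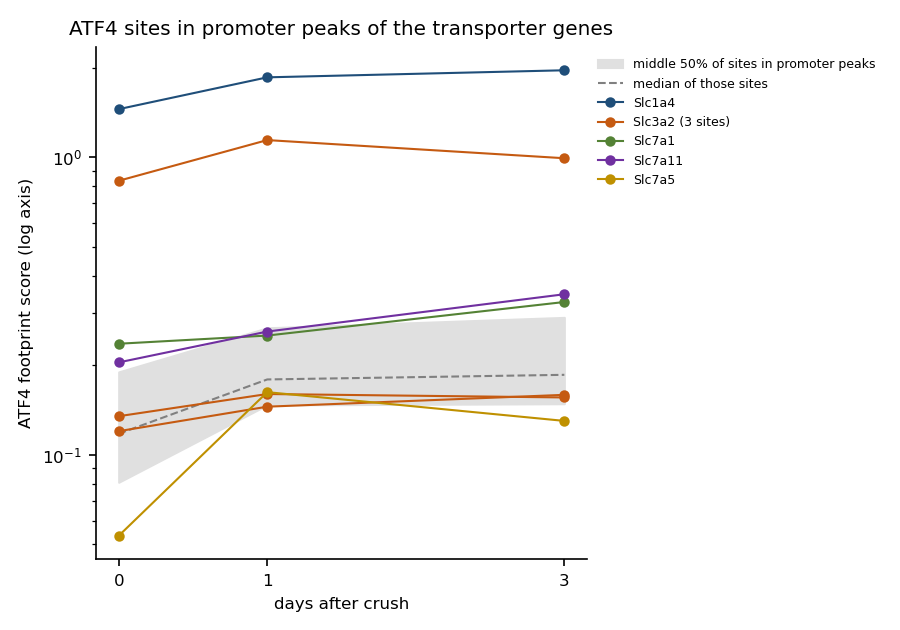
ATF4 footprint score (vertical log axis) on days 0, 1 and 3 after crush for the 7 sites in promoter peaks of the transporter genes, with the middle 50% of all 2670 listed sites in promoter peaks in grey and their median dashed. The sites of Slc1a4 (1.45 on day 0) and of Slc3a2 (0.834) lie above the grey band on every day. That of Slc7a5 lies below it on day 0 (0.0534) and on day 3 (0.130).

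The authors' deposited table of promoter peaks correlated with gene expression lists 5 peaks of 4 transporters. In the authors' deposited table the Slc7a11 peaks have correlations of 0.619 and 0.694, the main promoter peak of Slc7a1 (chr5:148396638-148400732) has 0.577, the Slc1a4 peak 0.321 and a Slc3a2 peak (chr19:8721284-8725484) 0.309. The authors' deposited table holds 6882 such pairs and no negative value, so the sign is not informative.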

How the data were processed

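RNA counts per gene were deposited by the authors. Per the submitters' processing notes, STAR, HTSeq, Picard and edgeR are among the tools and mm10 among the builds named, and FastQC, Trim Galore, Bowtie2, SAMtools, MACS2, bedtools, featureCounts and ChIPseeker too; no roles or parameters are given there. ATAC counts per consensus peak were deposited by the authors with batch-adjusted log2 values, and normalised log2 RNA values were deposited too; these log2 values served only as alternatives. Footprint scores and bound flags per site and day, correlation values, and p-value columns were deposited by the authors; no p-value of theirs is used. The share of reads in peaks is a fraction deposited by the authors in the ATAC sample table.

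Counts were tested with the edgeR 4.0.16 quasi-likelihood test (R 4.3.3, limma 3.58.1), with all days in the fit, trimmed-mean scaling, the default low-count filter (smallest count 10) and, for ATAC, batch as a term. Adjusted p-values cover all genes or peaks. DESeq2 1.42.0 was an alternative; the fits were tested on simulated data. Plots used matplotlib 3.10.9. Of 15 RNA samples labelled, 13 had values; the third replicate of day 2 and the first of day 4 are not analysed here. The RNA kit does not mark strand, so overlapping antisense reads cannot be told apart. A further 36 per-sample columns were not used. ATAC columns were matched to samples by title. Members and lists were chosen with earlier results of these data known. All members were named; from each list, the up to 4 genes with the smallest day 3 adjusted p and a mean of at least 5 CPM; for each member, its promoter peak closest to any annotated transcript start (ties, with several at distance 0, by the higher mean count) and up to 2 further peaks called on day 3, every ATF4 site in a promoter peak, and up to 3 most similar genes. Counts are of reads without molecular identifiers, so depth limits cover counting error only.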

Additional observations from a re-analysis of the deposited data

How the results depend on the processing

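RNA results: of 450 values under other settings 437 kept their direction and side of the threshold and none reversed, and of 650 values with 1 library left out 624 did. Steps between neighbouring days entered this tally only where the main fit called them. Fitting only the compared days gave 815 genes on day 1 (1563 in the main analysis) and 656 from day 3 to day 4 (239), where DESeq2 gave 596, with 6 transporters higher from day 2 to day 3 and 4 lower from day 3 to day 4. The sequencing components left 626 genes (of 1779) and 1 transporter from day 1 to day 2. Leaving out 1 library gave 1024 to 1563 genes on day 1, 2427 to 3983 on day 2, 682 to 1946 from day 1 to day 2, 996 to 2579 from day 2 to day 3 and 1 to 367 from day 3 to day 4, with 4 to 9 and 1 to 5 transporters higher in the steps to day 2 and day 3. Leave-one-out reversals were all of Slc1a5, which ranged from -0.0547 to 0.445 on day 2, -0.302 to 0.656 on day 3 and -0.695 to 0.778 on day 4. Same-numbered replicates showed little shared deviation (median r 0.016 for RNA, 0.085 for ATAC within batch), beside -0.010 and -0.051 for other numbers. With so few libraries per group this cannot settle whether the numbers pair samples, and the main fits treated them as unpaired. With the replicate block, RNA gave 1534 genes on day 1 and 5458 on day 3, with 9 transporters higher on day 3, and ATAC gave 6212 peaks on day 1 and 1090 from day 1 to day 3.

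ATAC peaks called in the main analysis were 11884 on day 1, 36123 on day 3 and 1789 from day 1 to day 3; the transporter promoter counts (higher, lower) were 1 and 3, 3 and 1, 0 and 0. With no batch term they were 0, 14466 and 0 peaks, with 0 promoter peaks on day 1 and 0 lower on day 3. Batch 2 alone gave 40817 peaks on day 1 and 15532 from day 1 to day 3, with 2 and 8 promoter peaks on day 1, 4 lower on day 3, and 4 and 1 from day 1 to day 3. Batch 1 alone gave 7162 peaks on day 3 and 0 promoter peaks. DESeq2 gave 20450 on day 1 and 6424 from day 1 to day 3, with 7 lower on day 1, 3 lower on day 3 and 3 higher from day 1 to day 3; its size factors in edgeR gave 3 lower on day 3. Library size alone gave 27188 and 3951, with 2 higher on day 1, and 1 and 1 from day 1 to day 3. A term for the reads-in-peaks share gave 895, 21294 and 7961, with 0 on day 1, 0 lower on day 3, and 1 and 1 from day 1 to day 3. The lowess trend removed gave 0, 13238 and 0, with 0 on day 1, and 1 higher and 0 lower on day 3. The deposited batch-adjusted values gave 2312 on day 1 and 11500 from day 1 to day 3, with 0 on day 1, 2 lower on day 3, and 1 and 2 from day 1 to day 3. Leaving out 1 library gave 419 to 18479 peaks on day 1 and 0 to 4452 from day 1 to day 3, 0 to 1 higher and 0 to 7 lower promoter peaks on day 1, 0 to 3 lower on day 3 and 0 to 3 higher from day 1 to day 3.

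Of 306 ATAC values under other settings, 226 kept their direction and side of the threshold and 21 reversed. Of 390 values with 1 library left out, 321 did and 8 reversed. Both tallies cover the named peaks, with changes on day 1 or from day 1 to day 3 only where the main fit called them. Promoter log2 fold changes on day 3 changed sign as follows. Slc7a1 was -0.0346 in batch 2, -0.0119 in batch 1, and -0.0240 with DESeq2 or its size factors, and ranged from -0.0575 to 0.0887 with 1 library left out. Slc7a3 was 0.0182 with library size alone and ranged from -0.0874 to 0.0504 with 1 library left out. With the reads-in-peaks term, Slc1a4 was 0.00476, Slc38a1 0.0671 and Slc7a3 0.0421. With the lowess trend removed, Slc1a4 was 0.48, Slc38a1 0.45, Slc38a2 0.40, Slc6a9 0.34 (0.22 for its further promoter peak), Slc1a5 0.23, Slc7a5 0.39 (0.00683 for the lower peak beyond its 3′ end) and Slc7a3 0.21, and on day 1 Slc1a4 was 0.15 and Slc6a9 0.0818. With the deposited batch-adjusted values, Slc1a4 was 0.000734 on day 1 and 0.0413 on day 3. With the lowess trend removed, the median over all promoter peaks was itself 0.35 on day 3 and 0.18 on day 1. In the main analysis these medians were -0.05 and -0.09. The cause of these shifts was not tested. The 7 ATF4 sites were the same in number with the whole site required inside the peak, or with only peaks annotated within 1 kb. That distance belongs to the peak, and a site in a wide peak can lie farther from a transcript start. A motif search over whole peaks was not run. Slc1a5 (19 to 61 counts) and day 0 of Slc7a3 are limited by depth.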

Other observations

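Footprint tables of other bZIP factors listed further sites in promoter peaks of the transporters, given here as values. The CEBPG table held 7 of its 9293 sites there and that of DDIT3 held 5 of 6365. They mostly lay at the ATF4 sites, with the same scores. The CEBPG site of Slc38a1 (chr15:96640086-96640100) was not at an ATF4 site and scored 0.101 on day 0 and 0.337 on day 1. The ATF3 table held 13 of 20364 sites, of which the one of Slc38a2 (chr15:96698879-96698889) scored highest on day 0, at 1.18, and reached 1.53 on day 1. As for ATF4, each of these tables holds 0 sites that were not higher on both days. Each also holds 0 sites flagged as bound on no day.

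The authors' deposited table of distal peaks links 88 peaks to 9 of the transporters, 20 of them to Slc7a1, 14 to Slc7a5, 12 each to Slc3a2 and Slc38a1, 9 to Slc1a4, 8 to Slc38a2, 6 to Slc7a11, 5 to Slc6a9 and 2 to Slc1a5. All 169469 links in the authors' deposited table have a positive correlation.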
